A study of Mus musculus with 28 samples.

Results

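Gas5, Snhg1, Snhg3, Snhg5, Snhg6, Snhg8 and Snhg12 are noncoding genes that carry small nucleolar RNAs (snoRNAs) inside them. They were chosen by name, as rows of the deposited tables, and make up 7 of the 24984 genes listed. Bru-seq followed their nascent RNA in mouse embryonic stem cells (mESCs), wild type (WT) or EloA null, in 3 conditions with 2 libraries per genotype and condition, 12 in all. In Bru-seq, cells take up 5-bromouridine (BrU) for a few minutes, and RNA that carries the label is pulled down and sequenced. In steady state, cells received BrU for 10 min and no drug. For recovery, cells of both genotypes were held for 60 min in flavopiridol (FP) and were then washed and labelled for 5 min or 10 min. FP inhibits the kinase P-TEFb and so keeps RNA polymerase II, paused shortly after the start site, from entering productive elongation. Values are RPKM, reads scaled to gene length and to library size, so they are levels per length and relative to the rest of the same library. EloA is the large subunit of elongin, an elongation factor. Per the study's methods the WT and null cells were mESC lines grown with LIF and 2 inhibitors on feeder fibroblasts that were depleted before labelling. The culture labels name CCE28 cells and the treatment labels CJ7 cells, and each genotype is a line, so a difference between lines and an effect of EloA cannot be told apart. For the first steady-state library titled EloA null the genotype label reads wild type, and its title was followed.

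A snoRNA host gene is transcribed and spliced like other genes, while the snoRNA is trimmed out of the excised intron. Box C/D snoRNAs guide 2′-O-methylation and box H/ACA snoRNAs guide pseudouridylation, mostly of ribosomal RNA. The spliced RNA of many such hosts starts with a pyrimidine tract, as in ribosomal protein mRNAs (the TOP class), is little translated into protein and is degraded when ribosomes enter it. Gas5 was first known as a transcript that accumulates in growth-arrested cells, and Snhg1 as the host of U22 and related snoRNAs. Bru-seq reads of such genes can come from introns, before the RNA is spliced, as well as from exons.

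The start regions are shown because these genes were grouped by their promoter type. RefSeq promoters of GRCm38.p6, the assembly behind mm10, were found for 6 of the 7 genes, all but Snhg6. Gas5 has a pair of annotated starts. Each line below runs from 45 bases before the start site to 25 bases from it, 5′ to 3′ on the gene's strand. Capitals mark 3 motifs lying 40 to 15 bases before the start: TATAAA, the same motif on the other strand, which reads TTTATA here, and another motif with alternating letters, TATATA. They also mark runs of at least 5 pyrimidines that reach into the stretch from 5 bases before to 15 bases after it.
Gas5, first start (chr1:161034556-161034625, +): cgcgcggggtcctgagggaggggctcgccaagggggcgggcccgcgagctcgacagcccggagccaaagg
Gas5, second start (chr1:161035121-161035190, +): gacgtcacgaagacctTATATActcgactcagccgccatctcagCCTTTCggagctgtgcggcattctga
Snhg1 (chr19:8723442-8723511, +): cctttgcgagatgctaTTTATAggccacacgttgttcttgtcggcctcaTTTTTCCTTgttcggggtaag
Snhg3 (chr4:132353662-132353731, -): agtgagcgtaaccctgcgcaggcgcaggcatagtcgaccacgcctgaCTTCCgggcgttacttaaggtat
Snhg5 (chr9:88522873-88522942, -): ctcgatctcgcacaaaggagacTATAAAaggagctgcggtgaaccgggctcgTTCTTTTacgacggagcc
Snhg8 (chr3:123508312-123508381, -): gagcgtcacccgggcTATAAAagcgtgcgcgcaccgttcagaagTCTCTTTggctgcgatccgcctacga
Snhg12 (chr4:132308633-132308702, +): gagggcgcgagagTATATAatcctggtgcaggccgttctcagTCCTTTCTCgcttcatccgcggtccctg

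A TATA motif stood in 5 of the 7 promoters, which belong to 5 of the 6 genes, all but Snhg3. Of all 32851 RefSeq promoters, 3.18% held one of the 3 motifs in that window (1.99% TATAAA, 0.618% TTTATA and 0.944% TATATA, which can overlap TATAAA by a few bases). A pyrimidine run was found in 6 of the 7 promoters, against 44.1% of all promoters. Counted per gene, 6 of the 6 had a run in some promoter, against 13030 of 27025 genes. As the genes were grouped by promoter type, the run is no separate finding about them. The first annotated start of Gas5 had neither. Gas5, Snhg1, Snhg5, Snhg8 and Snhg12 had both features.

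All 7 genes are short. Snhg8 spans 785 bases (chr3:123507552-123508336, -) with a single exon in RefSeq, and Gas5 spans 3939 bases (chr1:161034601-161038539, +). Between them lie Snhg3 (1754 bases, chr4:132351933-132353686, -), Snhg5 (1846 bases, chr9:88521052-88522897, -), Snhg6 (2094 bases, chr1:9942025-9944118, -), Snhg12 (2347 bases, chr4:132308678-132311024, +) and Snhg1 (2840 bases, chr19:8723487-8726326, +). Snhg12 and Snhg3 lie near each other on chromosome 4, on opposite strands. The RPKM of 5 of them stood for whole reads in every library when multiplied by library size and by the summed length of their annotated introns, each widened by 1 base on either side, from 843 bases in Snhg5 to 2382 bases in Snhg1. For Gas5 a length of 3036 bases gave whole reads, shorter than the 3612 bases that its introns give in the annotation used here, and for Snhg8 the whole span did. The RPKM of those 5 genes are thus scaled to intron length. The study's methods describe counting over whole genes, and the lengths alone do not show which reads were counted. The annotation places 26 snoRNAs inside the 7 genes: 8 in Gas5, 8 in Snhg1, 4 in Snhg12, 2 each in Snhg3 and Snhg5, and 1 each in Snhg6 and Snhg8.

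Library sizes worked out from the tables ran from 9857527 reads to 28547356 reads, and the 4 libraries of the 5-min recovery were the shallowest. Reads behind a value of these genes ran from 22 (Snhg8, 5-min recovery) to 5595 (Gas5, steady state). The 8 markers of mESCs were all above 0.5 RPKM in every group, with summed levels between 152 and 291 RPKM, while 8 markers of feeder fibroblasts summed to between 0.744 and 2.59 RPKM. Eloa, the targeted gene, was not lower in the libraries labelled EloA null. Its mean was 1.17 RPKM in WT and 1.92 RPKM in the null libraries in steady state, 2.89 and 5.69 RPKM at 5 min, and 5.58 and 8.83 RPKM at 10 min. Reads over a whole gene or all its introns do not test a deletion within it, so these levels do not check the labels. Genotypes are taken from the titles, and "null libraries" stands for the libraries titled EloA null. The study's figure legends call the Bru-seq replicates independent experiments, while the labels do not say what was separate between them. The p-values measure only the spread between such libraries within a line.

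In steady state the 7 genes were among the most strongly labelled genes of these cells. Among all rows of a library, the lowest of their percentiles was 97.7, for Snhg8, and the highest was 99.9, for Gas5. The order of genes rests on the lengths given above, which differ in kind for Gas5 and Snhg8. Gas5 read 67.6 and 65.1 RPKM in WT and 70.7 and 65.9 RPKM in EloA null libraries, the top value of the group in every library. Snhg5 read 31.6 and 35.6 RPKM in WT and 40.4 and 39.6 RPKM in the null libraries. Snhg6 was the most even, at 32.3, 31.5, 31.8 and 31.3 RPKM in the same order. Snhg1 read 26.1, 31.6, 30.8 and 28.7 RPKM. Snhg5, Snhg6 and Snhg1 changed places from library to library, so their order was not resolved. Snhg3 followed, at 18.4, 18.7, 22.4 and 19.0 RPKM. Snhg12 read 13.3 and 14.7 RPKM in WT and 22.1 and 20.1 RPKM in the null libraries, below Snhg3 in WT and level with it in the null libraries. Snhg8, the host of a single annotated snoRNA, was lowest in all 4 libraries, at 11.6, 11.95, 12.2 and 9.98 RPKM.

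After release from FP the 7 genes took different courses. BrU was given for 5 min in the 5-min recovery and for 10 min in the other conditions. Time after release and labelling time thus cannot be told apart in the 5-min values. Snhg1 stood above its steady-state level 5 min after release, and Snhg6 was close to its own. The other 5 genes, Gas5, Snhg3, Snhg5, Snhg8 and Snhg12, were between 0.212 and 0.513 times their steady-state level in single libraries. At 10 min Snhg1 and Snhg6 were both above steady state in all 4 libraries, while the other 5 were nearer to it than at 5 min but still below. This held in both genotypes. The median ratio of genes under 10 kb rose between these times as well. A ratio nearer to steady state thus does not show a gain on other genes.

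Snhg1 read 40.7 and 48.2 RPKM in WT and 39.4 and 51.4 RPKM in EloA null libraries at 5 min. Later, at 10 min, it read 33.7 and 45.2 RPKM in WT and 39.9 and 45.9 RPKM in the null libraries. All 8 recovery values lay above the 4 steady-state values, and the 5-min and 10-min values overlapped. Relative to the steady-state mean of the same genotype, WT stood at 1.54 ± 0.18 (SD, n = 2) at 5 min and 1.37 ± 0.28 at 10 min, and the null libraries at 1.53 ± 0.28 and 1.44 ± 0.14. Snhg6 read 27.1 and 33.4 RPKM in WT and 24.6 and 34.1 RPKM in the null libraries at 5 min, on both sides of its steady-state values. By 10 min it read 43.0 and 47.8 RPKM in WT and 42.5 and 47.5 RPKM in the null libraries, above every earlier value. Its ratio to steady state was 0.948 ± 0.14 in WT and 0.930 ± 0.21 in the null libraries at 5 min, and 1.42 ± 0.11 and 1.43 ± 0.11 at 10 min.

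Gas5, the strongest of the group in steady state, read 18.7 and 24.6 RPKM in WT and 16.4 and 26.1 RPKM in the null libraries at 5 min. Its 10-min values were 45.6 and 44.96 RPKM in WT and 49.0 and 53.8 RPKM in the null libraries. The 3 conditions did not overlap, and the 10-min level was 0.682 ± 0.0072 times steady state in WT and 0.753 ± 0.050 times in the null libraries. Snhg5 read 8.06 and 9.46 RPKM in WT and 9.96 and 8.93 RPKM in the null libraries at 5 min. At 10 min it read 15.0 and 15.8 RPKM in WT and 21.4 and 24.2 RPKM in the null libraries. The genotypes overlapped at 5 min and stood apart at 10 min, where Snhg5 was at 0.458 ± 0.016 times steady state in WT and 0.570 ± 0.050 times in the null libraries.

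Snhg3 had the lowest ratio of the 7 at 10 min in the null libraries. It read 4.38 and 5.74 RPKM in WT and 5.65 and 5.39 RPKM in the null libraries at 5 min. Its 10-min values were 8.69 and 9.03 RPKM in WT and 10.3 and 8.49 RPKM in the null libraries, or 0.478 ± 0.013 and 0.454 ± 0.061 times steady state. Snhg8 read 2.84 and 3.32 RPKM in WT and 2.35 and 2.73 RPKM in the null libraries at 5 min, values that rest on 22 to 37 reads. By 10 min it read 6.23 and 4.79 RPKM in WT and 6.70 and 7.05 RPKM in the null libraries. Snhg12 read 5.22 and 7.18 RPKM in WT and 6.00 and 9.14 RPKM in the null libraries at 5 min. Its 10-min values were 7.23 and 8.53 RPKM in WT, 1.27 times the 5-min mean, and 12.4 and 11.8 RPKM in the null libraries. At 5 min the second library of each genotype was the higher for Gas5, Snhg1, Snhg6, Snhg8 and Snhg12, and it was also the deeper one. The part of depth in these values was not tested.

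**Figure D1:**
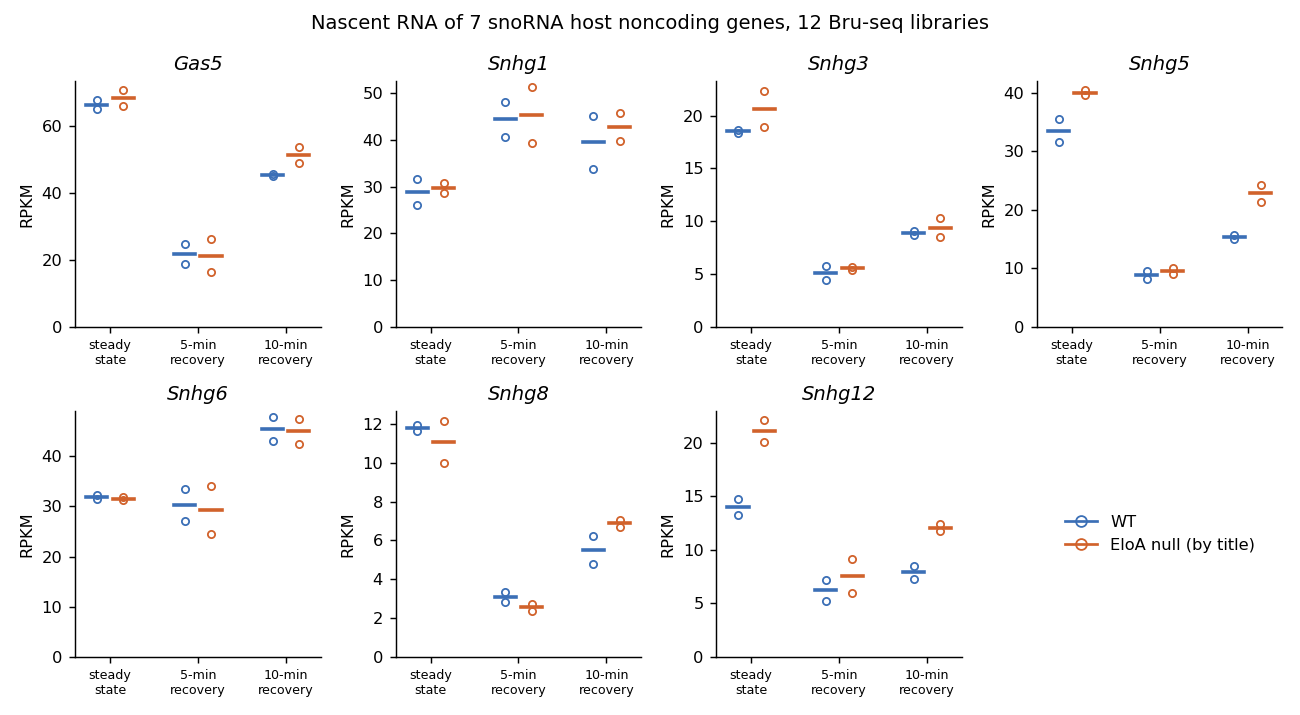
RPKM (vertical axes, linear, each from 0) of the 7 genes in steady state, 5-min recovery and 10-min recovery, with 1 circle per library and a bar at the mean of 2 libraries, WT in blue and libraries titled EloA null in orange. Snhg1 lies between 26.1 and 31.6 RPKM in steady state and between 39.4 and 51.4 RPKM at 5 min, while Gas5 lies between 65.1 and 70.7 RPKM and then between 16.4 and 26.1 RPKM.

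The tables of the 3 conditions were scaled separately, so a ratio to steady state holds only relative to the other genes of a library and was not tested. The rank of that ratio within a library does not depend on the scale. Among genes above 0.5 RPKM in steady state (10794 in WT and 11128 in the null libraries), Snhg1 lay between the 84.3th and 89.5th percentile at 5 min and Snhg6 between the 62.5th and 76.4th. Snhg5 lay between the 9.98th and 19.5th percentile and Snhg8 between the 10.1th and 19.5th. Snhg3 (9.65 to 22.9), Gas5 (13.5 to 33.5) and Snhg12 (22.4 to 43.8) were also in the lower part. At 10 min the 5 genes lay between the 12.2th and 38.8th percentile, and Snhg1 and Snhg6 between the 54.3th and 71.9th.

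Short genes can be crossed within minutes, so the 7 genes were set beside all genes under 10 kb. Median ratios of those genes ran from 0.607 to 0.809 at 5 min and from 1.17 to 1.30 at 10 min over the 4 libraries. At 5 min, 5 of the 7 genes were below that median in all 4 libraries, as were 35.2% of the 3275 such genes expressed in both genotypes, and the other 2, Snhg1 and Snhg6, were above it in all 4, as were 38.2%. At 10 min the same 5 genes were below it in all 4 libraries, against 37.7% of genes, and 1 of the 7, Snhg6, was above it in all 4, against 41.1%. Snhg1 was under the median in the first WT library at 10 min, at 1.17 times steady state. Snhg6 sat a little above it, between the 51.7th and 63.2th percentile of the genes under 10 kb expressed in its own genotype. Among the same genes, Gas5, Snhg3, Snhg5, Snhg8 and Snhg12 lay between the 14.1th and 37.3th percentile at 5 min. At 10 min they lay between the 14.0th and 31.7th, so the ranges overlapped.

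**Figure D2:**
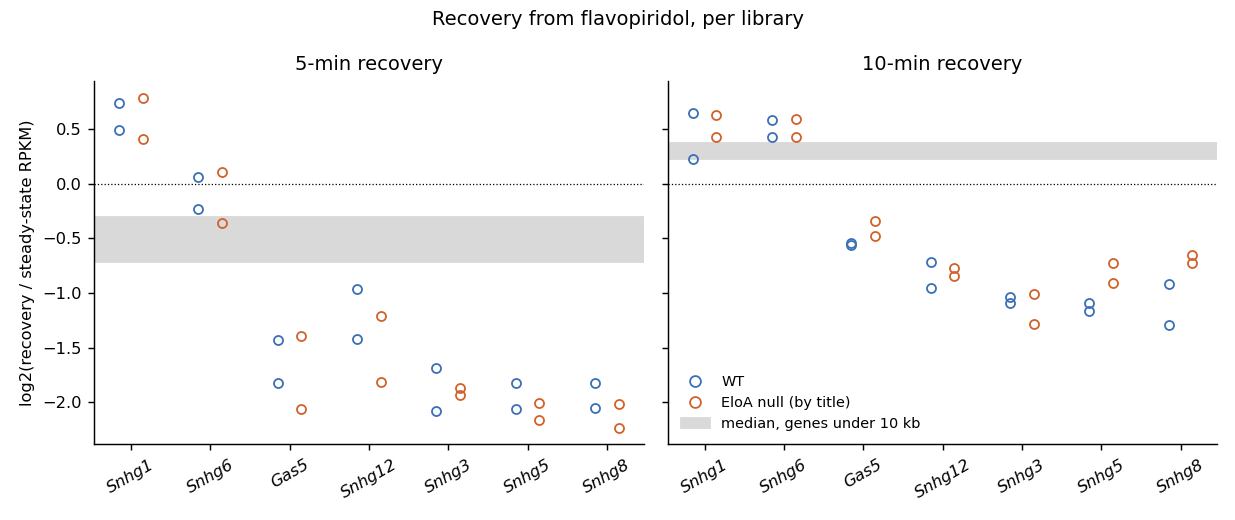
Log2 of each recovery library's RPKM over the mean steady-state RPKM of its genotype (vertical axis) for the 7 genes, 5 min on the left and 10 min on the right, 1 circle per library; the grey band spans the 4 libraries' medians over genes under 10 kb and the dotted line marks no change. Snhg1 and Snhg6 sit within or above the band and the other 5 genes below it, at both times.

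Ratios between genes of the same library do not depend on the scale of the library. Their size depends on the length each gene was divided by, but their change between conditions does not. Snhg1 was between 0.385 and 0.486 times Gas5 in the 4 steady-state libraries, between 1.96 and 2.41 times at 5 min, and between 0.739 and 1.01 times at 10 min. Snhg6 was between 0.449 and 0.483 times Gas5 in steady state, 1.31 to 1.502 times at 5 min and 0.868 to 1.06 times at 10 min. The 3 conditions did not overlap for either ratio, and Snhg1 was the highest of the 7 genes in all 4 libraries at 5 min. Snhg5, Snhg3, Snhg12 and Snhg8 kept within narrower bounds of Gas5. Snhg8, for example, was between 0.151 and 0.184 times Gas5 in steady state and between 0.105 and 0.152 times at 5 min. Over the 12 libraries, log2 levels of Gas5, Snhg3, Snhg5, Snhg8 and Snhg12 were correlated pairwise with Pearson's r between 0.865 and 0.969. Snhg1 had r between -0.587 and -0.814 with these 5, and Snhg6 between 0.0603 and 0.431. The points share the scale of their library and form 3 conditions, so r describes the course over conditions.

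The snoRNAs inside the hosts are shown for Snhg1 and Snhg6 and for 2 of the 5 genes that stayed below steady state, Gas5 and Snhg8, each as the annotated RNA on GRCm38.p6, 5′ to 3′. Capitals mark the C box TGATGA near the 5′ end and the D box CTGA near the 3′ end of box C/D snoRNAs, and the ACA triplet near the 3′ end of the box H/ACA snoRNA, where the exact letters were found.
Snord22, in Snhg1 (chr19:8725866-8725991, +): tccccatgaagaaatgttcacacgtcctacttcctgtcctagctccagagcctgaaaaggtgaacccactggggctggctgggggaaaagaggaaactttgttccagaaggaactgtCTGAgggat
Snord87, in Snhg6 (chr1:9942470-9942543, -): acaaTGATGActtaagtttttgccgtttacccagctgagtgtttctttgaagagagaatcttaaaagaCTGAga
Snord47, in Gas5 (chr1:161038092-161038156, +): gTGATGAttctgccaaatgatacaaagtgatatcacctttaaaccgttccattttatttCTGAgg
Snora24, in Snhg8 (chr3:123507937-123508066, -): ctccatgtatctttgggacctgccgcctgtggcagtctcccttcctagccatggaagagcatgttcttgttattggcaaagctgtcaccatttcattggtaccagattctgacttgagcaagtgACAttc

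Of the 26 snoRNAs, 8 have a row of their own, and their levels followed those of their hosts after FP. Snord22 read 46.2, 47.2, 53.9 and 38.9 RPKM in steady state (2 WT, then 2 null libraries) and 67.6, 84.6, 55.9 and 85.0 RPKM at 5 min, so all 4 values at 5 min were above those before. Snord47 read 136, 130, 142 and 102 RPKM in steady state and 43.7, 40.1, 24.5 and 55.2 RPKM at 5 min. It was at 0.314 times steady state in WT and 0.327 times in the null libraries, against 0.326 and 0.310 times for Gas5. Snora24 was at 0.212 and 0.187 times steady state at 5 min, from 5 to 10 reads per library, against 0.261 and 0.229 times for Snhg8. Snord87 stood at 0.765 times steady state in WT and 1.22 times in the null libraries, with values between 23.8 and 61.8 RPKM at 5 min that do not resolve a direction. The 4 snoRNAs of Snhg12 (Snora16a, Snora44, Snora61 and Snord99) were between 0.263 and 0.644 times steady state at 5 min. A read in a snoRNA can belong to its host's intron, and whether both rows counted it is not stated, so these rows are no independent measure of the hosts.

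**Figure D3:**
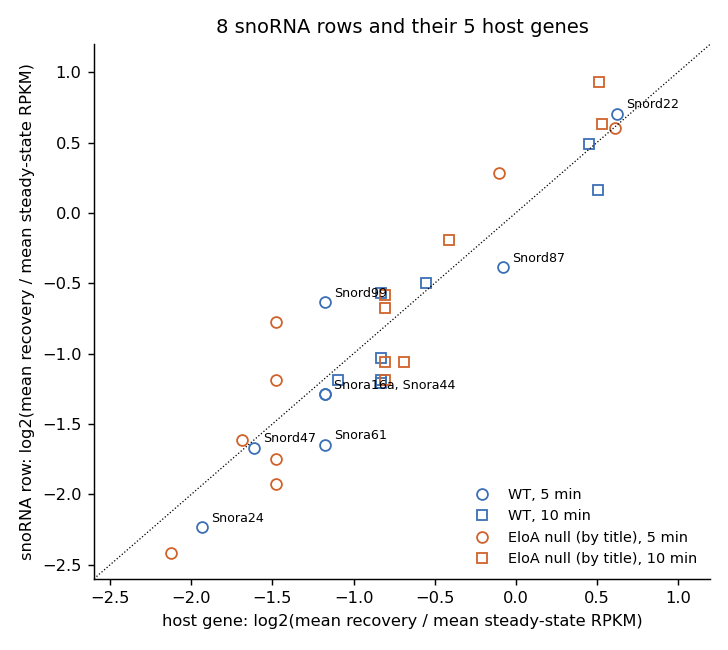
Log2 of mean recovery RPKM over mean steady-state RPKM for the 8 snoRNA rows (vertical axis) against their 5 host genes (horizontal axis), circles for 5 min and squares for 10 min, WT in blue and libraries titled EloA null in orange, with names at the WT 5-min point. Points lie along the dotted line of equal ratios, from Snora24 in Snhg8 at the lower left to Snord22 in Snhg1 at the upper right.

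Neighbouring genes were checked because it is not stated whether the gene counts used strand. Slc3a2, an amino acid transporter subunit, starts 118 bases upstream of Snhg1 on the other strand. It was at 0.929 times steady state in WT and 0.761 times in the null libraries at 5 min, when Snhg1 was at 1.54 and 1.53 times. Mcmdc2, a gene of meiotic recombination, overlaps Snhg6 from the other strand and read between 0.568 and 0.878 RPKM in steady state, between 2.05 and 2.82 RPKM at 5 min and between 6.97 and 8.14 RPKM at 10 min. Its largest value was below the smallest value of Snhg6, 24.6 RPKM, and the part of antisense reads in the 10-min level of Snhg6 was not tested. Zbtb37 overlaps Gas5 from the other strand and was at or under 2.54 RPKM in all 12 libraries.

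EloA null libraries were compared with WT within each table to ask whether loss of EloA changed the nascent RNA of these genes. 0 of the 7 genes passed an adjusted p of 0.05 in any condition (limma with an intensity trend, Benjamini-Hochberg over all genes tested). The background was low as well, with 0% of 11345 genes called in steady state, 0% of 8984 at 5 min and 0% of 10239 at 10 min. At an unadjusted p under 0.05, 1 of the 7 was found in steady state (Snhg12) against 18.4% of genes, 0 at 5 min against 9.42%, and 2 at 10 min (Snhg5 and Snhg12) against 20.5%. Of genes under 10 kb, 880 of 3692, 336 of 2962 and 1014 of 3466 were found at that level in the same order. On simulated steady-state libraries, with the spread of the WT pair, the test recovered 5 of 50 genes changed 1.5-fold and 38 of 50 changed 2-fold. At that spread, steady-state differences of 1.5-fold or less lie mostly below its reach. The recovery libraries were not simulated.

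Snhg12, which hosts 4 snoRNAs, had the largest genotype difference of the group. Both null libraries were above both WT libraries in steady state, by 1.51-fold in the means (log2 difference 0.59, SE 0.11, limma adjusted p = 0.129). Without the library whose genotype label reads wild type, the steady-state log2 difference was 0.52 (limma adjusted p = 0.247, with the lone null library taken to vary like the WT pair). At 10 min they were again apart, by 1.53-fold (log2 difference 0.61, SE 0.12, limma adjusted p = 0.135). At 5 min the genotypes overlapped and the log2 difference was 0.27 with an SE of 0.28 (limma adjusted p = 0.819). The 4 snoRNA rows within it were higher in the null means in every condition, between 1.04-fold and 1.98-fold. They lie inside Snhg12 and may hold the same reads, so they add no separate evidence. At 5 min, 3 to 40 reads stood behind each of their values. Snora16a was the furthest apart, at 9.38 and 10.3 RPKM in WT and 22.1 and 17.0 RPKM in the null libraries at 10 min (log2 difference 0.97, SE 0.16, limma adjusted p = 0.108). These values rest on 24, 31, 60 and 66 reads. In other hosts, Snord22, Snord47 and Snora24 overlapped between genotypes in every condition. Snord87, in Snhg6, was lower in both null libraries in steady state (log2 difference -0.49, SE 0.20) and higher in both at 10 min (0.30, SE 0.14). Neither difference passed (limma adjusted p = 0.303 each), and 60 to 105 reads stood behind its steady-state values. Of all genes tested, 21.4% were so placed in steady state and 33.5% at 10 min.

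Snhg5 was apart in the same direction in steady state (log2 difference 0.26, SE 0.12, limma adjusted p = 0.335) and at 10 min, where the null mean was 1.48-fold higher (log2 difference 0.56, SE 0.10, limma adjusted p = 0.120). Without the library whose label reads wild type, its steady-state difference was 0.24 (limma adjusted p = 0.450). At 5 min its log2 difference was 0.11 with an SE of 0.19. Snhg1 and Snhg6, the genes that recovered early, had no resolved genotype difference. Their log2 differences were 0.05 (SE 0.14) and -0.02 (SE 0.10) in steady state, 0.02 (SE 0.22) and -0.06 (SE 0.24) at 5 min, and 0.13 (SE 0.17) and -0.01 (SE 0.10) at 10 min. Gas5, at 0.04 (SE 0.11), -0.06 (SE 0.29) and 0.18 (SE 0.08), and Snhg3, at 0.15 (SE 0.12), 0.14 (SE 0.20) and 0.08 (SE 0.13), were within 0.2 of 0 on the log2 scale. Snhg8 had a log2 difference of -0.10 (SE 0.13) in steady state, -0.27 (SE 0.17) at 5 min and 0.33 (SE 0.15) at 10 min.

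**Figure D4:**
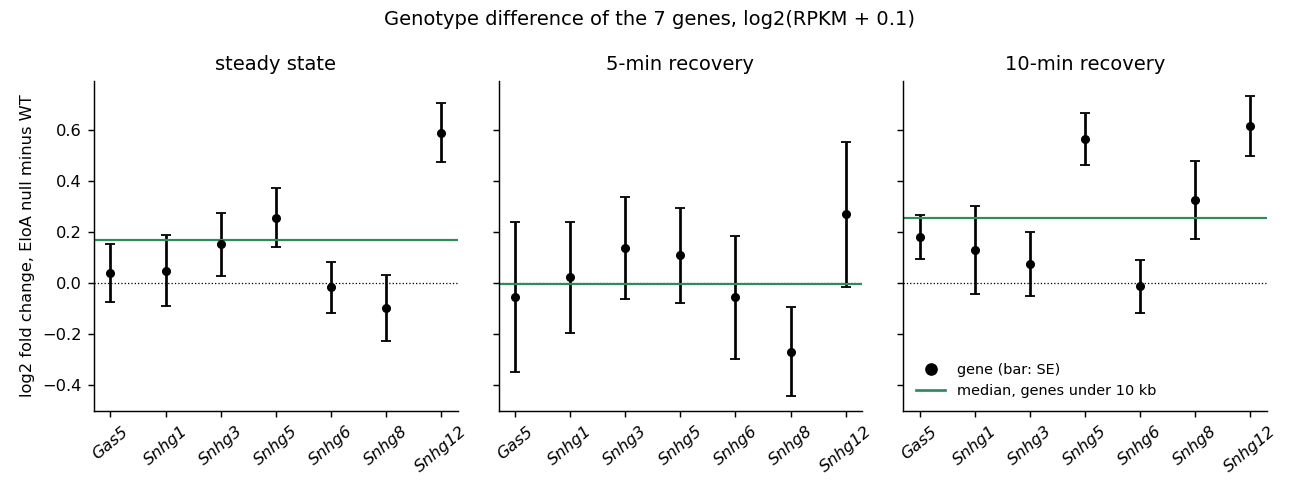
Log2 fold change of EloA null over WT with its SE (vertical axis) for the 7 genes in the 3 conditions; the dotted line marks no difference and the green line the median of tested genes under 10 kb. Snhg12 lies at 0.59, 0.27 and 0.61 and Snhg6 within 0.06 of 0.

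The placing of libraries was read against all genes tested. Both null libraries were above both WT libraries for 3 of the 7 genes in steady state (Snhg3, Snhg5 and Snhg12), where 32.0% of all genes tested were so placed, for 0 at 5 min (15.4%) and for 4 at 10 min (Gas5, Snhg5, Snhg8 and Snhg12; 33.5%). Both were below for 0 of the 7 in steady state (21.4%), 1 at 5 min (Snhg8; 25.0%) and 0 at 10 min (21.8%). All 7 genes are short, and the placing differed for genes under 10 kb. Of these, both null libraries were above for 1542 of 3692 in steady state, 515 of 2962 at 5 min and 1697 of 3466 at 10 min. Both were below for 294, 455 and 270 of them. A mean more than 1.5-fold higher in the null libraries was found for Snhg12 alone, in steady state (7.21% of genes) and at 10 min (9.41%), and for 0 of the 7 at 5 min (5.40%). Among genes under 10 kb, 563 of 3692 in steady state, 297 of 2962 at 5 min and 670 of 3466 at 10 min were past it. Snhg12 was just past that limit. As a fold from the fit it was under it without the library whose label reads wild type (1.43-fold in steady state), without the first WT library (1.43-fold in steady state and 1.41-fold at 10 min), without the first null library at 10 min (1.49-fold) and with median centring (1.44-fold and 1.43-fold). Of 6 settings of pseudocount, scaling and trend, median centring among them, 1 left it past 1.5-fold in steady state and 2 at 10 min. A mean more than 1.5-fold lower was found for 0 of the 7 in steady state (2.10%), at 5 min (6.72%) and at 10 min (3.01%). The median log2 difference of the 7 genes was 0.05 in steady state, 0.02 at 5 min and 0.18 at 10 min. Over all genes tested it was 0.03, -0.06 and 0.06, and over those under 10 kb it was 0.17, -0.00 and 0.25.

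A fit of all 12 libraries asked whether the genotype difference itself changed during recovery. 0 of the 7 genes passed the adjusted p for a change from steady state to 5 min, and 0 for a change from steady state to 10 min. Of 11973 genes, 0.100% and 0.00835% did. At an unadjusted p under 0.05 the same 0 of 7 were found at both times, against 6.51% and 1.64% of genes. The estimates closest to that level were those of Snhg8 and Snhg5 from steady state to 10 min, with changes of 0.42 (SE 0.22) and 0.31 (SE 0.17) on the log2 scale.

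Other genes of the same kind were followed through lists. Of 10 other Snhg genes in the tables, 8 were tested in steady state, and 0 passed the adjusted p in any condition. Their steady-state log2 differences reached 0.63 (Snhg11, from 0.435 to 0.727 RPKM). The lowest was -0.29 for Snhg9, with an SE of 0.80, while its mean RPKM ran the other way, from 4.42 in WT to 4.92 in the null libraries. Snhg7 (19.96 and 19.94 RPKM), Snhg4 (41.4 and 40.7 RPKM) and Snhg17 (21.0 and 22.3 RPKM) were alike in WT and null means. The split in recovery was also seen among them, though these examples were picked after their values were seen. Snhg10 stood at 1.94 times steady state in both genotypes at 5 min, while Snhg7 was at 0.229 times in WT and 0.241 times in the null libraries. Over the expressed genes of this list, median ratios at 5 min ran from 0.416 to 0.513 in the 4 libraries. The same median was 0.274 to 0.381 for the 7 genes, and 0.671 to 0.788 for protein-coding genes that hold a snoRNA (172 or 173 expressed).

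Genes of proteins that work with snoRNAs had larger ratios to steady state than most of the 7 hosts. For 19 genes of snoRNA particles and their assembly, the median ratio at 5 min was 0.970 to 1.11 over the 4 libraries, and 1.81 to 1.94 at 10 min. Fbl and Dkc1 were picked as examples after their values were seen. Fbl, the methyltransferase of box C/D particles, was at 2.06 times steady state in WT and 1.83 times in the null libraries at 5 min. Dkc1, the pseudouridine synthase of box H/ACA particles, was at 0.966 and 1.04 times. Between genotypes 0 of the 19 passed the adjusted p in any condition, and the outermost log2 differences in steady state were -0.24 (Znhit6) and 0.43 (Nufip1), both assembly factors. Of 14 factors of nonsense-mediated decay, which removes many spliced host RNAs, 0 passed in any condition, with a range in steady state from -0.22 (Upf3b) to 0.17 (Upf1). Of 79 ribosomal protein genes, the best-known TOP class, 0 passed in any condition. Both null libraries were above both WT libraries for 44 of these genes in steady state and below for 1, against 32.0% and 21.4% of all genes tested and 1542 and 294 of the 3692 under 10 kb. At 5 min they were above for 4 and below for 6, against 15.4% and 25.0% of all genes. In steady state the log2 differences ran from -0.15 (Rplp1) to 0.71 (Rpl15). Their median ratio at 5 min was 0.642 to 0.828. Of 222 protein-coding snoRNA hosts, 173 were tested in steady state and 0 passed.

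The genes whose course over the 12 libraries was most like the mean of the 7 were, in order, Rpl13, Rps9, Rps2, 1110038B12Rik and Rpl10a, with Pearson's r from 0.988 to 0.981 among 2805 genes above 2 RPKM in all 3 tables. 4 of these 5 encode ribosomal proteins and 1110038B12Rik is a noncoding gene of 2237 bases. The share of ribosomal protein genes among the 2805 was not counted, and the mean of the 7 joins unlike courses. The 79 ribosomal protein genes together had median ratios to steady state of 0.642 to 0.828 at 5 min, against 0.274 to 0.381 for the 7. The correlation was not summarized over their class, so the likeness is stated for the named genes only. Rpl13 stood at 19.1 RPKM in WT and 25.2 RPKM in the null libraries in steady state, 6.82 and 7.37 RPKM at 5 min, and 12.7 and 16.1 RPKM at 10 min.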

How the data were processed

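Nascent RNA of 12 Bru-seq libraries was analysed. Another 16 samples, of other assays, were not used here. Per the submitters' processing notes and the study's methods, the authors aligned reads to mm10 with Bowtie2 2.3.4.3, kept uniquely aligned reads with SAMtools, counted them in RefSeq genes with featureCounts 1.6.1, normalized them with edgeR and deposited RPKM in 1 table per condition, with replicates unpooled. Mature polyadenylated RNA was depleted before the pull-down. Libraries were directional and reads of each strand were separated, but whether the gene counts used strand is not given in the sources used here. Since RPKM is scaled to the reads of each library, a change of all genes together cannot be seen.

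Rows with a name that occurs more than once were left out (24980 of 24984 kept). 24418 names matched RefSeq genes of GRCm38.p6, 407 matched an older symbol and 155 did not match. Read counts were worked out from the steps between RPKM values, with a tolerance of 0.02 reads, and served only to describe depth: 90.9% to 92.0% of 1-exon genes gave whole reads with their span, and 96.6% to 96.9% of genes with introns did so with the summed introns. Genes with a mean RPKM above 0.5 in either genotype were tested on log2(RPKM + 0.1), so fold changes of low genes are understated, with limma 3.58.1 in R 4.3.3. Tables were fitted separately, and changes of the genotype difference in 1 fit of 12 libraries. Ratios between tables are descriptions. On simulated steady-state libraries, where 200 of 11159 genes were changed, limma recovered 5, 38, 50 and 50 of 50 genes changed 1.5-, 2-, 4- and 8-fold, with 16 false calls, and made 0 calls where no gene was changed. With 2 libraries against 2, an exact permutation test of a single value could not go below p = 0.333.

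The members, the gene lists and the rule for named genes (the 7 genes, Eloa, snoRNAs inside the 7, neighbours, the 5 genes most like them, and the outermost genes of each list in steady state) were chosen with earlier results of these data known. Alternatives were other pseudocounts, filters, scalings and models, a replicate block and leaving out each library.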

Additional observations from a re-analysis of the deposited data

Results flagged for a closer look

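Snhg8, the weakest of the 7 genes, had genotype differences that pointed in opposite directions at the times of recovery. Both EloA null libraries were below both WT libraries at 5 min (log2 difference -0.27, SE 0.17) and above both at 10 min (log2 difference 0.33, SE 0.15). Of all genes tested, 25.0% were so placed at 5 min and 33.5% at 10 min, and the share placed so at both times was not counted. Leaving out 1 library moved the log2 differences of Snhg8 to between -0.38 and -0.16 at 5 min and between 0.14 and 0.51 at 10 min. In the fit of all 12 libraries, a test chosen after seeing the data, the difference between these was 0.59 (SE 0.22, unadjusted p = 0.0258, limma adjusted p = 0.807), so it did not pass, and only 22 to 37 reads stand behind each value at 5 min. Snhg5 had a change of 0.45 (SE 0.17, limma adjusted p = 0.813) between the same times. Groups of 2 libraries are too small for a search for outlying libraries.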

How the results depend on the processing

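No alternative brought any of the 7 genes past an adjusted p of 0.05. The smallest limma adjusted p was 0.0507, for Snhg5 at 10 min when all 12 libraries shared the spread, and the values for that gene and time ran up to 0.554. Of 126 log2 differences under the 6 settings that can move an estimate, 109 kept their direction and 17 reversed, while 5 other settings change only the error or the genes tested. Median centring gave -0.019 for Gas5 and -0.011 for Snhg1 in steady state, 0.011 for Gas5 and 0.011 for Snhg6 at 5 min, and -0.021 for Snhg3 at 10 min. Quantile normalization gave -0.071 for Gas5 and -0.031 for Snhg1 in steady state and -0.0079 for Snhg3 at 10 min. Removing the length trend gave -0.11 for Gas5, -0.11 for Snhg1 and -0.030 for Snhg3 in steady state, -0.063 for Snhg1 at 5 min, and -0.017 for Gas5, -0.078 for Snhg1 and -0.15 for Snhg3 at 10 min. Removing the GC trend gave 0.024 and 0.053 for Snhg6 in steady state and at 10 min. The median over the 7 genes became -0.031 with quantile normalization and -0.11 without the length trend in steady state. At 10 min it became 0.084 with median centring, 0.13 with quantile normalization, -0.017 without the length trend and 0.29 without the GC trend. The cause was not tested. The 0 genes called in each table became 132, 532 and 264 in steady state, at 5 min and at 10 min when all 12 libraries shared the spread.

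Leaving out 1 library reversed 18 of 84 log2 differences. In steady state Gas5 ran from -0.0097 to 0.092, Snhg1 from -0.091 to 0.19, Snhg6 from -0.036 to 0.0028 and Snhg8 from -0.24 to 0.046. At 5 min Gas5 ran from -0.39 to 0.28, Snhg1 from -0.17 to 0.21, Snhg3 from -0.055 to 0.33, Snhg5 from -0.0047 to 0.22, Snhg6 from -0.29 to 0.18 and Snhg12 from -0.029 to 0.57. At 10 min Snhg1 ran from -0.080 to 0.34, Snhg3 from -0.061 to 0.21 and Snhg6 from -0.092 to 0.067. The median over the 7 genes ran from -0.0028 to 0.16 in steady state, from -0.17 to 0.18 at 5 min and from 0.17 to 0.25 at 10 min, and their median ratio of 10-min to steady-state level in EloA null libraries from 0.565 to 0.689.

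The labels do not say that a replicate number marks a shared culture or day, and with 2 pairs per table the numbers were not taken to pair libraries. Correlations of the replicate differences between genotypes were 0.101, 0.119 and 0.103. With a replicate block, which leaves the estimates as they are in this balanced design, 0 of the 7 genes passed, and Snhg12 in steady state (log2 difference 0.59) had a limma adjusted p of 0.129. Genes called in the whole table at 5 min went from 0 to 128, and those whose difference changed from steady state to 5 min from 12 to 2.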
